A study of Mus musculus with 18 samples.

Results

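The estrogen effect on mouse cumulus cells was compared between cultures without and with oocytes, over all 18 arrays of the series. For each gene the estrogen effect was the log2 level with estrogen minus the log2 level without it, and the interaction was this effect without oocytes minus its mean in the cultures that held oocytes. All samples were cumulus cells, the somatic cells attached to the oocyte, from antral follicles of the ovaries of female mice, and all were cultured. The 6 groups had 3 arrays each: oocyte-free complexes with estrogen (E2 OOX) and without it (OOX), intact cumulus-oocyte complexes with estrogen (E2 COC) and without it (COC), and oocyte-free complexes cocultured with oocytes with estrogen (E2 OOX + Oocytes) and without it (OOX + Oocytes). The first pair, 6 arrays, had no oocytes and the other 12 arrays had them. The labels used here give no strain, age, estrogen dose, culture time or number of animals per sample, and nothing in them shows whether samples of the same group are separate cultures. The p-values therefore measure the spread between these arrays, and part or all of it may be technical.

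Cumulus cells and the oocyte exchange signals in both directions. Oocytes secrete growth factors of the TGF-beta family, such as GDF9 and BMP15, which act through SMAD proteins on the cumulus cells and sustain their growth, glycolysis, cholesterol synthesis and amino acid uptake. Estrogen, made by the granulosa cells of the follicle, acts through the nuclear receptors ESR1 and ESR2, of which ESR2 is the main form in granulosa cells. Cumulus cells in turn carry NPR2, the receptor for the peptide NPPC, and the cGMP it produces holds the oocyte in meiotic arrest.

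Before the comparison, 3 features of the arrays have to be known. The title of E2 OOX replicate 1 names estrogen, whereas its source name and treatment label do not. The title was followed, and this array correlated more closely with the other E2 OOX arrays (mean r = 0.975 across genes) than with the OOX arrays (0.937). The array names fall into 3 numbering series, of 13, 2 and 3 arrays. All OOX arrays lay outside the largest series, which held E2 OOX replicates 1 and 2, so the estrogen effect without oocytes could be read inside a single series only from E2 OOX replicate 3 against OOX replicates 1 and 2. Values called within array series join that effect with the effects with oocytes inside the largest series, 14 arrays in all. OOX replicate 3 stood apart. Its values had an interquartile range of 2.54, and those of the other arrays lay between 2.70 and 3.06. The median within-group SD over genes was 0.230 in E2 OOX, 0.274 in OOX, 0.150 in E2 COC, 0.161 in COC, 0.171 in E2 OOX + Oocytes and 0.204 in OOX + Oocytes, so the oocyte-free groups spread most. Granulosa identity markers were well expressed, with 12 to 14 of 15 above the median over all genes and arrays (6.33, over the probe set taken for each of 18193 genes) in every group, whereas 2 or 3 of 20 oocyte markers were. The mean level of the oocyte markers was 4.75 to 4.85 on E2 OOX arrays and 4.90 to 5.36 on OOX arrays, against 5.09 to 5.11 on E2 COC, 5.03 to 5.19 on COC, 4.91 to 5.17 on E2 OOX + Oocytes and 5.06 to 5.52 on OOX + Oocytes arrays.

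Of 12246 tested genes, 618 (5.05%) had a called interaction, meaning a limma adjusted p under 0.05. The interaction was positive for 366 genes (2.99%) and negative for 252 (2.06%), and 433 of the 618 differed at least 2-fold in their estrogen response. Estrogen alone raised 738 genes (6.03%) and lowered 443 (3.62%) without oocytes. With oocytes it raised 863 (7.05%) and lowered 730 (5.96%), a larger count from a more precise contrast, since the median standard error (SE) was 0.139 with oocytes and 0.197 without. RNA came from whole cell samples, so a change in the share of a cell type and a change of RNA per cell cannot be told apart.

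No gene was called for a different estrogen response in cocultures than in intact complexes. The difference between these 2 responses was called for 0 genes (0.0%) by limma, and 218 genes had an unadjusted p under 0.05. Of the 708 genes called for estrogen in intact complexes, 98.6% had the same sign in cocultures, 59.0% were also called there in the same direction, and 0 were called in the opposite direction. In oocyte-free complexes 72.7% of those 708 genes had the same sign, 25.3% were called in the same direction and 36 (5.1%) in the opposite one. Across all tested genes, as a description, the estrogen effects correlated with r = 0.814 between cocultures and intact complexes, with r = 0.342 between oocyte-free and intact complexes, and with r = 0.379 between oocyte-free complexes and cocultures. The 3 effects share no arrays, but all were normalized together. For the oocyte-free effect no OOX array lay in the largest array series, which held E2 OOX replicates 1 and 2. The oocyte-free groups also spread most. The lower r and smaller shares of the oocyte-free effect cannot be told apart from the array series and this spread.

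Sorted by the calls of both effects, the 618 genes fell into 6 classes. The estrogen effect was called in opposite directions for 58 genes (9.4%), weaker without oocytes for 18 (2.9%), called with oocytes alone for 240 (38.8%), stronger without oocytes for 24 (3.9%), called without oocytes alone for 246 (39.8%), and called in neither for 32 (5.2%). A missing call does not show a missing effect. By sign and size alone, 398 of the 618 had effects of opposite sign, 95 a smaller and 125 a larger effect without oocytes. The sign of the interaction held for all 618 genes with the array series as a term in the fit, within array series, without OOX replicate 3 and without E2 OOX replicate 1. The genes were selected on these arrays and the fits share most of them. Kept signs and kept calls, here and below, were thus favoured in advance and are a description. The calls of 508 of the 618 held with the series term, of 336 (54.4%) within array series, of 523 without OOX replicate 3 and of 383 without E2 OOX replicate 1. For 279 of the 618 genes the lowest group mean lay below 6.33, where array signals are compressed and a fold is understated.

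**Figure D1:**
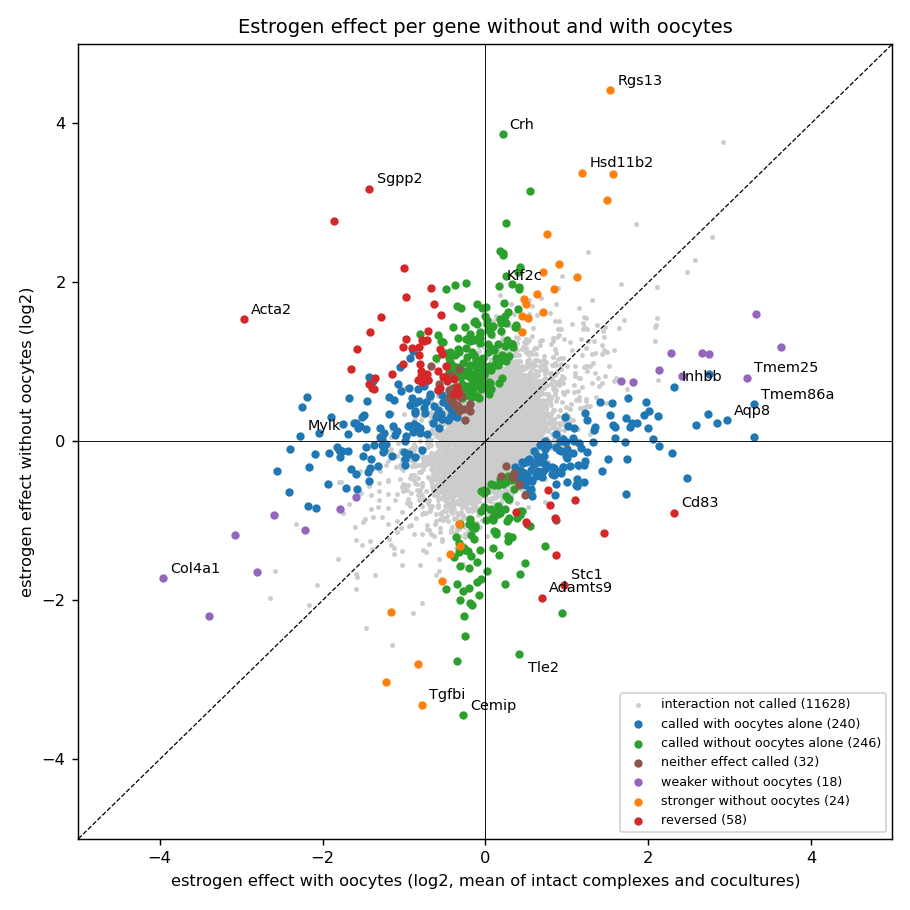
Estrogen effect of each of the 12246 tested genes without oocytes (vertical axis, log2) and with oocytes (horizontal axis, log2, mean of intact complexes and cocultures). Colours mark the classes of the 618 genes with a called interaction, and the dashed line marks equal effects. The 58 reversed genes lie at the upper left and the lower right, with Acta2 and Sgpp2 at the upper left and Cd83 at the lower right.

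These promoters are shown as examples that hold a motif match, and they do not stand for their classes. The promoters of the reversed genes Gm2102, Acta2 and 4933431K23Rik held none of the motifs marked in Sgpp2 and are not shown. The promoters shown belong to genes whose estrogen effect was reversed (Sgpp2, Cnn2) or lost its call (Myl9) without oocytes. They are the 250 bases before the start of the gene, 5′ to 3′, from RefSeq on GRCm38.p6. In Sgpp2 the capitals mark AGGTCA, the core to which estrogen receptors and other nuclear receptors bind, the E-box CACGTG, and GGGCGG, the SP1 box, each searched on both strands. In Myl9 and Cnn2 the capitals mark the CArG box, the site of serum response factor, which was searched on both strands after the contractile genes had been seen to share a positive interaction.
Sgpp2, chr1:78310096-78310345, strand +: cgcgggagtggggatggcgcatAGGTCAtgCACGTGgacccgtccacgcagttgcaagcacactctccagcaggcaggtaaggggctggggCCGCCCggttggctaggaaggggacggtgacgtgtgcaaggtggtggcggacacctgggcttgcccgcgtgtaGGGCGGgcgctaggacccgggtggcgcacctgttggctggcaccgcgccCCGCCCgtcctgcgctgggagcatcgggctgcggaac
Myl9, chr2:156775214-156775463, strand +: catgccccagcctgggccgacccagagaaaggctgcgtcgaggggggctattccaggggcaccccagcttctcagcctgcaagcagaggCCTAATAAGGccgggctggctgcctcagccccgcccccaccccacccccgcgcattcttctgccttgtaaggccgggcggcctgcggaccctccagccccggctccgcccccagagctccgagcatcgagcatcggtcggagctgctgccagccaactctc
Cnn2, chr10:79988350-79988599, strand +: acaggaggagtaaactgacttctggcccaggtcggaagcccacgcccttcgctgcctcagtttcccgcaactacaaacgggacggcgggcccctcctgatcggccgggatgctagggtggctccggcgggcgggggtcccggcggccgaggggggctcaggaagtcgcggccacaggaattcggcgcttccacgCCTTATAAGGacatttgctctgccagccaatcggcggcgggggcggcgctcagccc
The AGGTCA match of Sgpp2 begins 228 bases before the start, its E-box 220 bases and its SP1 boxes 159, 86 and 37 bases before it. The CArG box began 161 bases before the start of Myl9 and 56 bases before that of Cnn2. A CArG box was found in 3 of the 16 available promoters of tested contractile genes (18.8%: Cnn2, Myl9 and Vcl). Among those with a called interaction it was found in 2 of 9 (22.2%: Cnn2 and Myl9). It was found in 1.1% of the promoters of all tested genes and in 1.5% of 32851 promoters. The matches marked in Myl9 and Cnn2 have only A and T between CC and GG. The Acta2 promoter holds ccctatatgg and ccttgtttgg, which have another base there and were not counted. The counts thus do not show that a promoter lacks looser forms of the box. A link of the CArG box to the interaction was not tested. AGGTCA was found in 15.2% of 46 promoters of reversed genes, 10.5% of 191 promoters of genes called with oocytes alone and 11.6% of 190 promoters of genes called without oocytes alone, beside 10.6% of the promoters of tested genes and 14.0% of all promoters. TGANTCA, the AP-1 site, was found in 0 of the 46, and in 4.2% of the promoters of tested genes. A match is a run of letters and not a measured binding site.

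Reversal was mostly in 1 direction. Of the 58 reversed genes, 47 rose with estrogen without oocytes and fell with oocytes, with a median effect of 0.97 without oocytes, -0.80 in intact complexes and -0.72 in cocultures. The other 11 fell without oocytes and rose with them, with medians of -0.96, 1.01 and 0.80. All 58 had the same sign in intact complexes and in cocultures, and 21 were called in each of these cultures alone. A called mean of the effects in these cultures was part of the class. The same sign was thus favoured by the selection and is a description. With the array series as a term 30 of the 58 were still called in opposite directions, within array series 22 were, without OOX replicate 3 49 were and without E2 OOX replicate 1 33 were. The effects of all 58 kept opposite signs in these 4 fits.

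Acta2, the actin of smooth muscle cells and a mark of contractile cells, had one of the largest reversals. Its log2 level was 11.99, 11.72 and 10.79 on E2 OOX arrays, against 9.73, 9.64 and 10.51 on OOX arrays. It was 8.78, 8.19 and 8.60 on E2 COC arrays against 11.92, 11.74 and 11.94 on COC arrays, and 10.27, 9.16 and 9.46 on E2 OOX + Oocytes arrays against 12.42, 11.88 and 12.35 on OOX + Oocytes arrays. Every estrogen array was above every array without estrogen in oocyte-free complexes and below every one in both other cultures. Acta2 rose 2.91-fold with estrogen without oocytes (limma adjusted p = 0.00494) and was 7.81-fold lower with estrogen with oocytes (5.62e-08), an interaction of 4.50 ± 0.39 (log2, SE; adjusted p = 2.23e-06). Within array series the interaction of Acta2 was 4.15, without OOX replicate 3 it was 4.78 and without E2 OOX replicate 1 it was 4.26. E2 OOX replicate 3 was the lowest of its group and OOX replicate 3 the highest of its own.

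Sgpp2, which removes the phosphate of sphingosine-1-phosphate, moved the same way. Without oocytes it read 9.31, 8.25 and 8.36 with estrogen, against 4.45, 5.87 and 6.07 without estrogen. In intact complexes it read 8.70, 8.41 and 8.46 with estrogen, against 9.74, 10.07 and 10.13 without, and in cocultures 9.35, 8.95 and 9.23 against 10.72, 10.14 and 10.85. The groups did not overlap in any of the 3 cultures, and the 3 groups with estrogen lay closer together than the 3 without. The interaction of Sgpp2 was 4.60 ± 0.42 (log2, SE; limma adjusted p = 3.61e-06), from a 9.04-fold rise without oocytes and a 2.69-fold fall with them.

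The predicted genes Gm2102 and 4933431K23Rik completed the top of this direction, with interactions of 4.64 ± 0.36 and 3.18 ± 0.29 (log2, SE). For Gm2102 a dimmer probe set, with a mean level of 5.23, had an interaction of 0.01. Ptch1, the Hedgehog receptor and itself a Hedgehog target, averaged 9.17 ± 0.17 in E2 OOX and 8.44 ± 0.16 in OOX, against means of 8.15 ± 0.15 in E2 COC and 9.66 ± 0.21 in COC (log2, SD, n = 3 each), and its interaction was 2.16 ± 0.22 (SE; limma adjusted p = 9.65e-06). Its partner target Gli1 fell with oocytes (-1.94) and had an effect of -0.54 without them that was not called (interaction 1.40, limma adjusted p = 0.000679). Slc38a4, an amino acid transporter, rose by 1.17 without oocytes and fell with them (-1.58, log2). Pmepa1, a feedback inhibitor of TGF-beta signalling, rose by 0.68 without oocytes and fell with them (-1.40). Wt1, a transcription factor of early granulosa cells, rose by 0.95 without oocytes and fell with them (-0.48).

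In the other direction, Cd83, a membrane protein best known from activated immune cells, was raised by estrogen where oocytes were present. It read 4.19, 3.79 and 4.30 on E2 OOX arrays and 5.38, 5.02 and 4.57 on OOX arrays. On E2 COC arrays it read 7.12, 6.96 and 7.39, against 4.69, 4.73 and 4.33 on COC arrays, and cocultures gave 6.56, 6.67 and 7.39 with estrogen against 4.52, 5.12 and 4.78 without. The groups were separate in each culture, and the values without oocytes were low, where signals are compressed. The filter on low values asked for at least 3 arrays above the array median. Cd83 passed it only through its E2 COC and E2 OOX + Oocytes arrays. Its interaction of -3.22 ± 0.30 (log2, SE) is therefore a description and no test is given.

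Stc1, a secreted glycoprotein that inhibits the IGF-binding-protein protease PAPP-A, read 7.72, 7.60 and 8.18 on E2 OOX arrays and 9.92, 9.70 and 9.29 on OOX arrays. With oocytes it was lower and the order was turned, at 6.40, 6.78 and 6.63 on E2 COC arrays against 5.59, 5.69 and 5.28 on COC arrays, and at 7.54, 6.75 and 6.36 against 6.26, 6.39 and 5.44 in cocultures, where the ranges overlapped. Its interaction was -2.77 ± 0.35 (limma adjusted p = 9.2e-05). Adamts9, a protease of proteoglycans, and Hs3st1, a heparan sulfate sulfotransferase, had interactions of -2.66 ± 0.28 and -2.61 ± 0.36. The other probe sets of Stc1 and Adamts9 had the same sign, with interactions of -0.29 for Stc1 and of -1.63 and -0.22 for Adamts9. Vcan, a proteoglycan of the expanding cumulus matrix, fell without oocytes (-0.96) and rose by 0.86 with them.

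**Figure D2:**
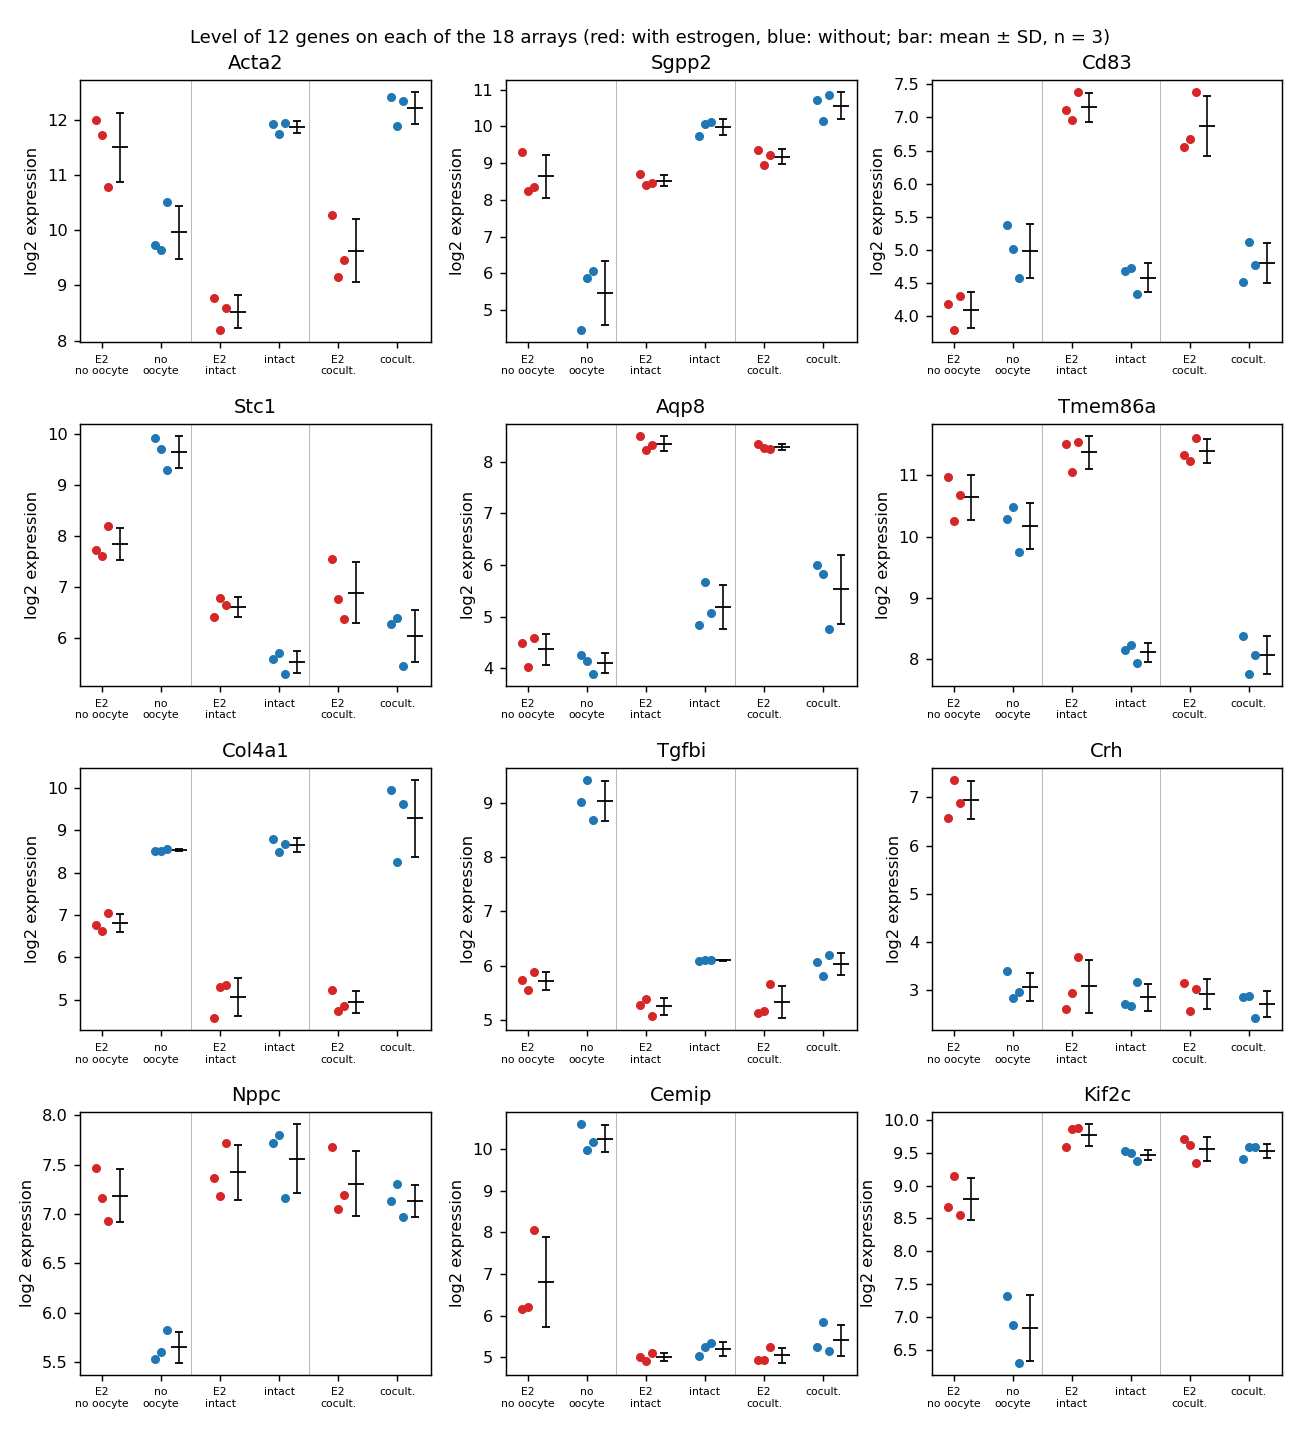
Log2 expression of 12 genes on the 18 arrays, with estrogen in red and without it in blue, for oocyte-free complexes at the left, intact complexes in the middle and cocultures at the right of each panel; points are arrays and bars are means ± SD (n = 3). Acta2 and Sgpp2 were raised by estrogen without oocytes and lowered with them, and Crh was above 6 on the 3 E2 OOX arrays and below 4 on the other 15.

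Contractile genes had a positive interaction in most members. Of 18 tested actin and contractile genes, 11 had a positive called interaction, a share set against 2.99% of all tested genes, and 0 a negative one, with a median interaction of 1.28 against -0.02 over all tested genes. With oocytes estrogen lowered 13 of the 18 and raised 0, beside 5.96% and 7.05% of all tested genes, with a median effect of -0.66. Without oocytes it raised 4 (Acta2, Ccn1, Cnn2 and Actn1) and lowered 0, with a median of 0.15, beside 6.03% of all tested genes raised. Of these 4 rises, 2 were called with the array series as a term, 0 within array series, 3 without OOX replicate 3 and 2 without E2 OOX replicate 1. The mean level of the 18 genes was 9.61, 9.45 and 9.27 on E2 OOX arrays against 9.21, 9.15 and 8.93 on OOX arrays. It was 7.73, 7.60 and 7.88 on E2 COC arrays against 8.71, 8.68 and 8.77 on COC arrays, and 7.98, 7.68 and 8.07 against 9.08, 9.27 and 8.64 in cocultures. The 6 arrays with estrogen and oocytes were the lowest of the 18. All 11 of these genes kept a positive interaction call with the array series as a term, without OOX replicate 3 and without E2 OOX replicate 1, and 9 of the 11 kept it within array series. The list was drawn up with earlier results of these arrays known.

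Several of these genes lost the estrogen call without oocytes. Cald1, caldesmon, which binds actin and slows myosin, fell with oocytes (-2.40) and changed by -0.10 without them, which was not called (interaction 2.30, limma adjusted p = 0.00536). The following members lie outside the rule for naming and were picked after their values were seen. Myl9, a regulatory light chain of myosin, fell with oocytes (-1.43, log2) and had an effect of 0.81 without them that was not called. Tagln, an actin-binding protein of smooth muscle, fell with oocytes (-1.77) and had an effect of -0.12 without. Tmsb4x, which binds actin monomers, fell with oocytes (-2.56) and had an effect of -0.37 without. Cnn2, a calponin, rose by 1.1 without oocytes and fell with them (-0.53). Actn1, alpha-actinin, rose by 0.64 without oocytes and fell with them (-0.58).

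With oocytes, estrogen lowered the gene of a myosin kinase and raised that of an inhibitor of the myosin phosphatase. Mylk, the myosin light chain kinase, read 9.74, 9.07 and 9.30 on E2 OOX arrays against 8.97, 9.06 and 9.87 on OOX arrays, which overlap. It read 8.02, 8.03 and 7.91 on E2 COC arrays against 10.32, 10.40 and 10.39 on COC arrays, and 8.91, 8.51 and 8.27 against 10.78, 10.28 and 11.13 in cocultures, with no overlap. The interaction of Mylk was 2.35 ± 0.30 (log2, SE; limma adjusted p = 0.000133). Ppp1r14a, which inhibits the phosphatase of myosin, rose by 2.47 with oocytes and had an effect of -0.46 without them that was not called (interaction -2.93 ± 0.28, limma adjusted p = 6.82e-06).

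**Figure D3:**
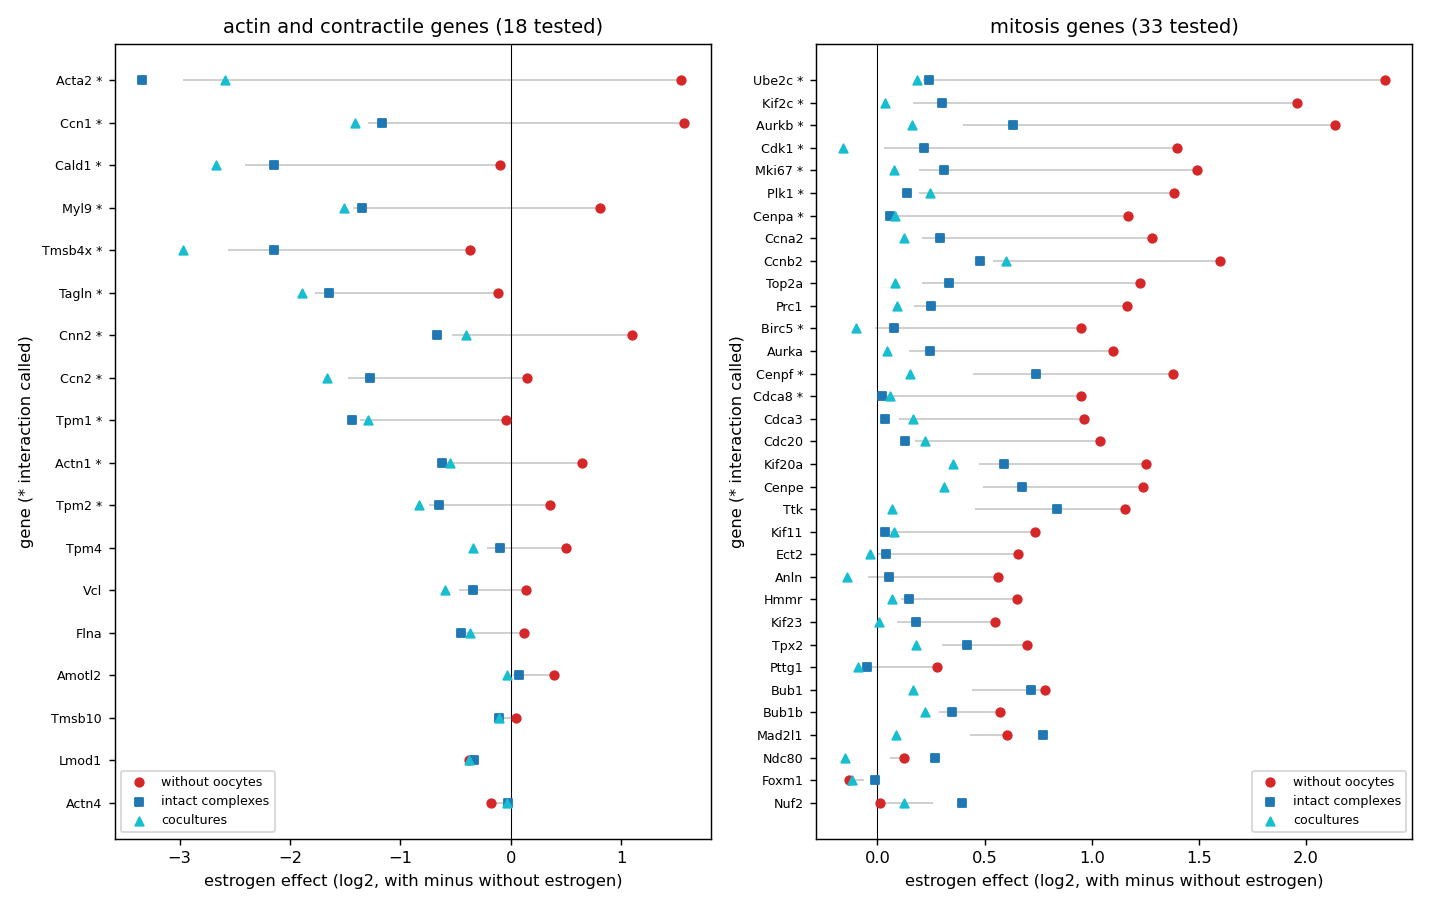
Estrogen effect (log2, horizontal axis) without oocytes, in intact complexes and in cocultures for each tested gene (vertical axis) of the contractile and the mitosis list; grey lines join the effect without oocytes to the mean effect with oocytes and an asterisk marks a called interaction. Without oocytes the contractile genes had a median effect of 0.15 and the mitosis genes of 1.04, against -0.66 and 0.18 with oocytes.

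Among the 240 genes called with oocytes alone, 119 fell with oocytes (median effect of -1.09 in intact complexes and -1.12 in cocultures, 0.19 without oocytes) and 121 rose with oocytes (1.05 and 0.95, -0.22 without oocytes). All 240 had the same sign in intact complexes and cocultures, and 158 were called in each alone. Here too a called mean of the effects in these cultures was part of the class, which favours the same sign. Tmem86a, an enzyme that breaks down lysoplasmalogen lipids, was high in all oocyte-free arrays. It read 10.98, 10.26 and 10.68 on E2 OOX arrays and 10.28, 10.49 and 9.75 on OOX arrays, which overlap. In intact complexes it read 11.51, 11.06 and 11.55 with estrogen against 8.15, 8.23 and 7.94 without, and in cocultures 11.34, 11.23 and 11.61 against 8.37, 7.75 and 8.07. It was 9.84-fold higher with estrogen with oocytes, and the OOX arrays lay above all COC and OOX + Oocytes arrays (interaction -2.83 ± 0.27, limma adjusted p = 6.82e-06).

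Aqp8, a water channel, stayed low without oocytes instead. It read 4.49, 4.02 and 4.58 with estrogen and 4.26, 4.14 and 3.88 without it in oocyte-free complexes. It rose to 8.50, 8.23 and 8.32 on E2 COC arrays, against 4.84, 5.66 and 5.07 on COC arrays, and to 8.35, 8.26 and 8.25 on E2 OOX + Oocytes arrays, against 5.99, 5.82 and 4.76 on OOX + Oocytes arrays. The interaction of Aqp8 was -2.69 ± 0.33 (log2, SE). Aqp8 passed the filter on low values only through arrays with oocytes, so its values are a description and no test is given. Rbfox3, a splicing factor of neurons, rose by 3.30 with oocytes and by 0.06 without, which was not called (interaction -3.24 ± 0.45, limma adjusted p = 0.000279).

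Inhbb, which encodes the beta B subunit of activin and inhibin, was also far higher with oocytes. It read 6.16, 6.60 and 6.29 on E2 OOX arrays, against 4.87, 5.76 and 6.35 on OOX arrays. It read 12.57, 12.72 and 12.79 on E2 COC arrays against 10.52, 10.47 and 10.01 on COC arrays, and 12.33, 12.74 and 12.61 against 11.06, 10.04 and 9.75 in cocultures. Its interaction of -1.63 ± 0.40 (limma adjusted p = 0.0211) was no longer called without OOX replicate 3 (adjusted p = 0.0511), without E2 OOX replicate 1 (0.0723) or within array series (0.18). Gja4, a connexin of the gap junctions between cumulus cells and oocyte, rose by 1.14 with oocytes and had an uncalled effect of -0.30 without (interaction -1.45). Gja4 passed the filter on low values only through its E2 COC and E2 OOX + Oocytes arrays, so its values are a description. Pla1a, a phospholipase, and Lmo7, a protein of cell junctions, fell with oocytes (-2.19 and -2.25), with interactions of 2.74 ± 0.38 and 2.68 ± 0.42. Lmo7 passed the filter only through arrays with oocytes, so its values too are a description. The immediate early gene Egr1 fell with oocytes (-1.56) and had an effect of 0.17 without them that was not called (interaction 1.74 ± 0.24, limma adjusted p = 0.000258).

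The 18 genes whose effect was weaker without oocytes were all called in intact complexes and in cocultures alone. A called mean of these 2 effects was again part of the class, which favours both calls. Col4a1, a chain of basement membrane collagen, read 6.76, 6.62 and 7.05 on E2 OOX arrays against 8.51, 8.52 and 8.57 on OOX arrays. It read 4.56, 5.30 and 5.35 on E2 COC arrays against 8.79, 8.48 and 8.68 on COC arrays, and 5.24, 4.74 and 4.86 against 9.96, 8.25 and 9.63 in cocultures. Levels without estrogen lay between 8.25 and 9.96 in all 3 cultures, and the fall was 3.30-fold without oocytes and 15.5-fold with them (interaction 2.23 ± 0.39, limma adjusted p = 0.00176). The other probe set of Col4a1, with a mean level of 6.62 against 7.22, had an interaction of 0.68. Cspg4 (NG2 proteoglycan) and Cd24a, a surface glycoprotein, followed with interactions of 1.90 ± 0.30 and 1.68 ± 0.29. The other probe set of Cspg4 had 0.93, and those of Cd24a had 2.06 and 1.59. Igfbp7, an IGF-binding protein, fell by 2.20 on the log2 scale without oocytes and by 3.39 with them. With the mean of probe sets its interaction was 0.31 and not called (limma adjusted p = 0.215).

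Among rises that were weaker without oocytes, Tmem25 had the most precise difference, with a 1.74-fold rise without oocytes and a 9.24-fold rise with them (interaction -2.41 ± 0.20, limma adjusted p = 1.4e-06). Cbfa2t3, a transcriptional corepressor, rose by 1.19 without oocytes and 3.62 with them. The other 3 probe sets of Cbfa2t3 had interactions of -0.37, -0.23 and -0.10, and the call was lost with the mean of probe sets (limma adjusted p = 0.0658). Rian and Mirg, noncoding RNAs of the imprinted Dlk1-Meg3 region, rose by 1.60 and 0.82 without oocytes and by 3.33 and 2.41 with them. The interaction of Rian was -1.73, its other 3 probe sets had -0.56, -0.43 and -0.43, and it was not called within array series (limma adjusted p = 0.156) or with the mean of probe sets (0.255). Notum, an enzyme that inactivates Wnt ligands, rose by 1.1 without oocytes and 2.75 with them.

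Stronger effects without oocytes were called for 24 genes. Rgs13, a regulator of G protein signalling, read 7.84, 7.69 and 7.23 on E2 OOX arrays and 3.11, 3.67 and 2.72 on OOX arrays. It read 7.76, 8.52 and 8.21 on E2 COC arrays against 6.56, 6.32 and 6.60 on COC arrays, and 8.18, 8.24 and 8.63 against 6.60, 6.93 and 7.32 in cocultures. With estrogen the 3 cultures were near each other, while without estrogen the oocyte-free arrays were the lowest (interaction 2.88 ± 0.31, limma adjusted p = 2.08e-05). Hsd11b2, which inactivates glucocorticoids, rose 10.4-fold without oocytes and 2.28-fold with them (interaction 2.19 ± 0.24). Slc38a3, the amino acid transporter known as an oocyte-dependent cumulus marker, rose 8.24-fold without oocytes and 2.81-fold with them (1.55 ± 0.23). Mycn, a transcription factor of proliferating cells, rose by 3.36 without oocytes and 1.57 with them.

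Tgfbi, a matrix protein induced by TGF-beta, gave the reverse picture, high where both oocytes and estrogen were missing. It read 5.74, 5.55 and 5.88 on E2 OOX arrays and 9.01, 9.42 and 8.68 on OOX arrays. It read 5.28, 5.39 and 5.07 on E2 COC arrays against 6.08, 6.10 and 6.11 on COC arrays, and 5.13, 5.17 and 5.66 against 6.07, 5.81 and 6.20 in cocultures. The interaction of Tgfbi was -2.54 ± 0.23 (log2, SE; limma adjusted p = 3.61e-06), and its other 3 probe sets had -3.18, -2.74 and -0.63. Tnnt1, the troponin T of slow skeletal muscle, fell by 2.80 without oocytes and by 0.83 with them.

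Effects called without oocytes alone numbered 246, 154 positive and 92 negative interactions. Crh, corticotropin-releasing hormone, was above the low end of the array scale in a single group. It read 6.58, 7.36 and 6.88 on E2 OOX arrays, against 3.41, 2.85 and 2.97 on OOX arrays. The 12 arrays with oocytes lay between 2.42 and 3.69. Crh was 14.6-fold higher with estrogen without oocytes, with an interaction of 3.65 ± 0.33 (log2, SE). It passed the filter on low values only through its E2 OOX arrays, so these values are a description and no test is given. Of the 618 genes 10 passed it through a single group, 5 through E2 OOX and 5 through OOX. Genes that passed through 2 groups, such as Cd83 and Gja4, are not among these 10. Myf5, a transcription factor of muscle precursors, and Crispld2, a secreted protein, had interactions of 2.60 ± 0.32 and 2.49 ± 0.20, and Myf5 too passed the filter only through E2 OOX.

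Nppc, the peptide that acts on NPR2, read 7.47, 7.16 and 6.93 on E2 OOX arrays and 5.53, 5.60 and 5.83 on OOX arrays. With oocytes it read 7.36, 7.18 and 7.72 on E2 COC arrays against 7.72, 7.80 and 7.16 on COC arrays, and 7.68, 7.05 and 7.19 against 7.13, 7.30 and 6.97 in cocultures. The OOX arrays were the lowest of the 18, and the groups overlapped in both cultures with oocytes. The interaction of Nppc was 1.52 ± 0.26 (log2, SE; limma adjusted p = 0.00139). Its receptor Npr2 did not follow: estrogen raised it by 1.56 without oocytes, 2.06 in intact complexes and 2.14 in cocultures, and the interaction of -0.55 ± 0.27 was not called (limma adjusted p = 0.333). The immediate early gene Fos rose by 1.73 without oocytes and had an uncalled effect of -0.11 with them (interaction 1.83 ± 0.29). Ldha, lactate dehydrogenase A, rose by 1.20 without oocytes and had an uncalled effect of 0.24 with them (interaction 0.96 ± 0.18).

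Among genes lowered without oocytes alone, Cemip, which binds hyaluronan and promotes its breakdown, read 6.16, 6.20 and 8.06 on E2 OOX arrays and 10.60, 9.97 and 10.18 on OOX arrays. The 6 arrays of intact complexes lay between 4.92 and 5.35 and the 6 coculture arrays between 4.95 and 5.84. E2 OOX replicate 3, from the array series of OOX replicates 1 and 2, stood between the other E2 OOX arrays and the OOX arrays, and the interaction of -3.17 ± 0.43 (limma adjusted p = 0.000248) was -2.05 within array series. Tle2, a Groucho corepressor, had 7.72, 8.33 and 9.21 on E2 OOX arrays against 11.23, 11.29 and 10.78 on OOX arrays, an interaction of -3.10 ± 0.33 that was -2.46 within array series. For Pdgfrb, a receptor for PDGF, E2 OOX replicate 3 (8.21) lay inside the range of the OOX arrays (9.40, 8.97 and 7.82), and its interaction was -3.09 ± 0.61 with all arrays and -1.91 within array series. Other probe sets, at lower mean levels, had interactions of -0.49 for Pdgfrb and of -0.14 and -0.56 for Cemip.

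**Figure D4:**
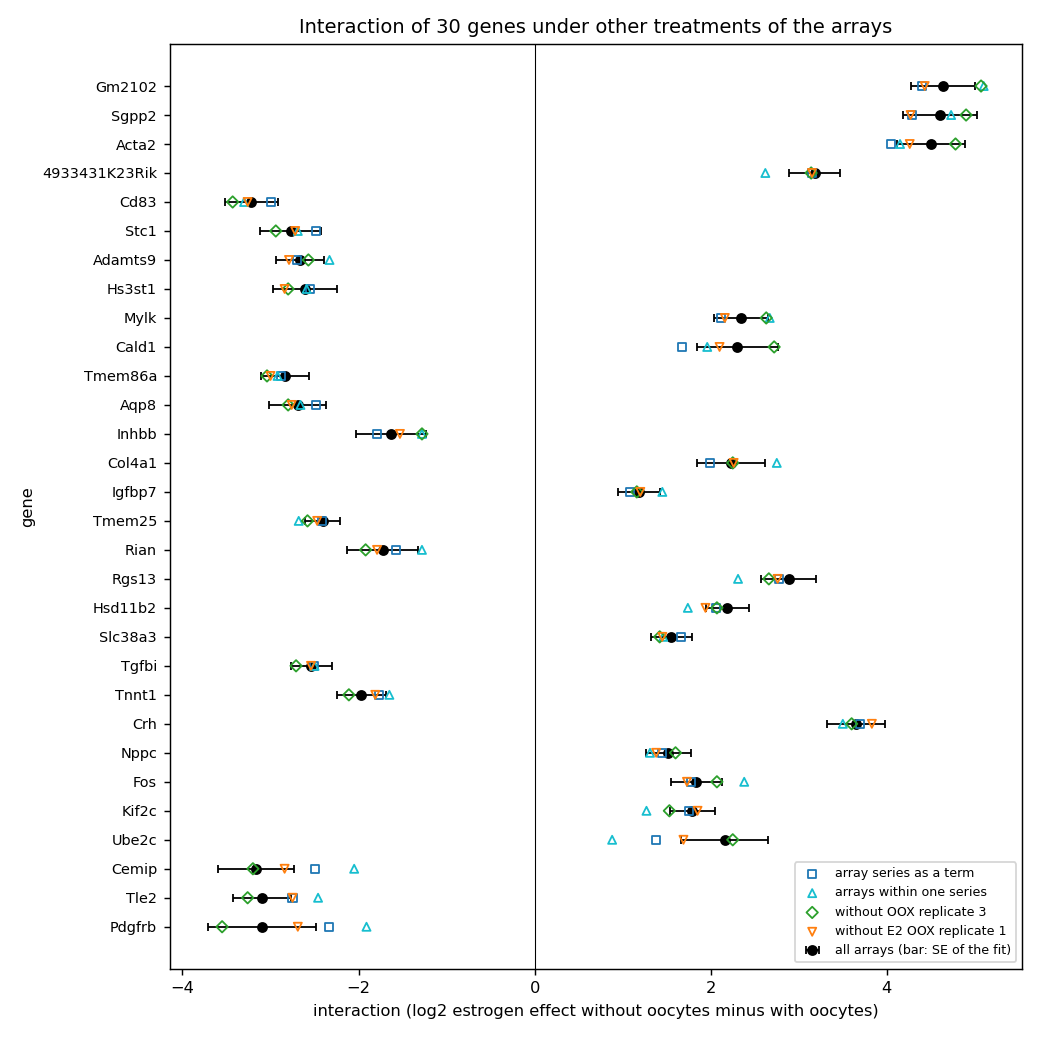
Interaction (log2, horizontal axis) of 30 genes (vertical axis) with all arrays (black, bar is the SE of the fit) and with the array series as a term, within array series, without OOX replicate 3 and without E2 OOX replicate 1 (open symbols). The sign was the same in all 5 fits, and Ube2c, Pdgfrb and Cemip moved furthest towards 0 within array series, to 0.88, -1.91 and -2.05.

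Estrogen raised 21 of 33 tested mitosis genes without oocytes and lowered 0, with a median effect of 1.04, beside 6.03% of all tested genes raised. The 21 became 12 with the array series as a term, 5 within array series, 20 without OOX replicate 3 and 13 without E2 OOX replicate 1. Estrogen raised 1 and lowered 0 with oocytes, beside 7.05% and 5.96% of all tested genes, with a median of 0.18. The interaction was positive and called for 10 (30.3%, beside 2.99% of all tested genes) and negative for 0, with a median of 0.86. Their mean level was 7.45, 7.35 and 6.94 on E2 OOX arrays, against 6.12, 6.39 and 6.20 on OOX arrays. With oocytes it was 8.64, 8.65 and 9.05 on E2 COC arrays against 8.41, 8.43 and 8.60 on COC arrays, and 8.30, 8.57 and 8.52 against 8.35, 8.66 and 8.08 in cocultures. The 3 E2 OOX arrays thus lay above the OOX arrays and below all 12 arrays with oocytes. The count of 10 fell to 5 with the array series as a term, to 2 within array series and to 2 without E2 OOX replicate 1, with medians of 0.63, 0.56 and 0.66, and was 9 without OOX replicate 3.

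Kif2c, a kinesin that takes microtubules apart, read 8.67, 9.15 and 8.55 on E2 OOX arrays and 7.31, 6.88 and 6.30 on OOX arrays. The 6 arrays of intact complexes lay between 9.38 and 9.87, and those of cocultures between 9.35 and 9.71. The interaction of Kif2c was 1.79 ± 0.26 (log2, SE; limma adjusted p = 0.000379). Its other 3 probe sets had interactions of -0.06, -0.01 and -0.25, and with the mean of its probe sets the interaction was 0.37 and not called (limma adjusted p = 0.127). Ube2c, a ubiquitin-conjugating enzyme of mitotic exit, read 9.51, 9.14 and 7.10 on E2 OOX arrays against 6.13, 6.11 and 6.40 on OOX arrays, so that E2 OOX replicate 3 was again the nearest to the OOX arrays. Its interaction of 2.16 ± 0.49 was 0.88 within array series, and its adjusted p was 0.0145 with all arrays and 0.0541 without E2 OOX replicate 1. Mki67, a marker of dividing cells, had an interaction of 1.30 ± 0.33 (limma adjusted p = 0.0275), which lost its call once the series entered the fit (adjusted p = 0.0622). Of 33 tested DNA replication genes, 2 had a positive and 0 a negative called interaction, beside 2.99% and 2.06% of all tested genes. The list median was 0.42, and Rrm2, a subunit of ribonucleotide reductase, led the 2 with 1.51 ± 0.27. Neither of these 2 genes kept its call within array series, where the limma adjusted p of Rrm2 was 0.0606, and 1 of the 2 kept it without E2 OOX replicate 1.

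Genes known to depend on the oocyte were split. Of 13 tested cumulus markers, 6 had a positive and 0 a negative called interaction (Ube2c, Tex14, Slc38a3, Dnajb13, Tgfb2 and Ldha), beside 2.99% and 2.06% of all tested genes. Without E2 OOX replicate 1 the positive count was 4. With all arrays estrogen raised 8 of the 13 without oocytes and 4 with them, beside 6.03% and 7.05% of all tested genes. Their mean level was 8.70, 8.36 and 8.45 on E2 OOX arrays and 7.17, 7.60 and 7.56 on OOX arrays, against 9.53 to 10.16 on the 12 arrays with oocytes. Cholesterol synthesis genes differed, with 0 positive and 2 negative called interactions of 21 (Dhcr7 and Hmgcs1), beside 2.99% and 2.06% of all tested genes. The list median was -0.42. The mean level of the 21 was 7.37, 7.04 and 7.25 on E2 OOX arrays and 6.69, 7.30 and 7.23 on OOX arrays, which overlap. With oocytes estrogen raised 5 of the 21 and lowered 0, beside 7.05% and 5.96% of all tested genes. The negative count was 5 without OOX replicate 3, 3 within array series and 0 without E2 OOX replicate 1, where the adjusted p of Dhcr7 was 0.0536.

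Targets of SMAD signalling went both ways, with 3 positive and 4 negative called interactions of 18, beside 2.99% and 2.06% of all tested genes. Id1 and Id3, inhibitors of helix-loop-helix factors and BMP targets picked after their values were seen, rose by 0.89 and 0.67 with oocytes and had uncalled effects of -0.38 and -0.05 without. Id4, of the same family, fell with oocytes (-1.69) and had an uncalled effect of 0.09 without, and within array series (limma adjusted p = 0.101) its interaction was not called. Of 25 immediate early and heat shock genes, 5 had a positive and 0 a negative called interaction, beside 2.99% and 2.06% of all tested genes. The 5 were Klf4, Fos, Egr1, Nr4a1 and Klf6. With oocytes estrogen lowered 8 and raised 2 of the 25, beside 5.96% and 7.05% of all tested genes. Of 25 matrix genes, 4 had a positive and 2 a negative called interaction, beside 2.99% and 2.06% of all tested genes. The positive count was 1 without E2 OOX replicate 1. With all arrays estrogen lowered 9 matrix genes without oocytes and 8 with them, beside 3.62% and 5.96% of all tested genes. In the IGF list of 15, Igfbp6, an IGF-binding protein, fell without oocytes (-2.20) and had an uncalled effect of -0.26 with them. Igfbp6 passed the filter on low values only through its E2 OOX and OOX arrays.

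Neither estrogen receptor gene had a called interaction with all arrays. Esr1 read 7.33, 7.32 and 7.25 on E2 OOX arrays against 6.11, 5.98 and 7.70 on OOX arrays, and its interaction of 0.95 ± 0.38 had a limma adjusted p of 0.195 with all arrays and of 0.00034 without OOX replicate 3. The interaction of Esr2 was 0.82 ± 0.30 (limma adjusted p = 0.138). Greb1, a classical estrogen target, had estrogen effects of 0.35 without oocytes, 0.82 in intact complexes and 0.79 in cocultures, and an interaction of -0.45 ± 0.17 (limma adjusted p = 0.174). Of 25 estrogen response genes, 2 had a positive (8.0%) and 1 a negative called interaction (4.0%), beside 2.99% and 2.06% of all tested genes, with a median of -0.06, and 12 had an unadjusted p under 0.05, as did 2022 of the 12246. The negative call was lost without OOX replicate 3 and without E2 OOX replicate 1. For Kitl, the ligand of the oocyte receptor KIT, another probe set disagreed in sign, with an interaction of 1.18 against -1.05, and E2 OOX replicate 3 (11.47) stood above the other 2 (9.82 and 9.78). Foxl2, a transcription factor of granulosa cells, rose by 0.43 with oocytes and had an uncalled effect of -0.37 without (interaction -0.81, limma adjusted p = 0.0379), and the call was lost with the series term (0.0733), within array series (0.411), without OOX replicate 3 (0.0511), without E2 OOX replicate 1 (0.0795) and with the mean of probe sets (0.105). Pgr did not pass the filter on low values. Of 19 cell death genes 0 had a called interaction by limma, and 3 had an unadjusted p under 0.05.

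Markers of other cell types were set against the 5.05% of all tested genes with a called interaction. Among tested oocyte markers 0 of 6 had a called interaction by limma, among endothelial markers 0 of 4 (0 with an unadjusted p under 0.05 in either list), among blood and immune markers 1 of 4 (Cd14, 0.65, not called without E2 OOX replicate 1) and among theca and stroma markers 2 of 6 (Ptch1 and Gli1). The summed log2 level of 14 theca and stroma markers was 78.0 to 79.0 on E2 OOX arrays and 80.4 to 83.7 on OOX arrays, 74.5 to 74.9 on E2 COC and 80.1 to 80.4 on COC arrays, and 75.1 to 75.8 on E2 OOX + Oocytes and 80.8 to 81.4 on OOX + Oocytes arrays. Of these markers Dcn, decorin, a proteoglycan of stroma, was high in the oocyte-free groups alone. It read 7.47, 7.74 and 8.61 on E2 OOX arrays against 9.05, 9.03 and 9.15 on OOX arrays, with group means between 4.48 and 4.75 where oocytes were present. It fell 2.20-fold with estrogen without oocytes, and its interaction of -0.98 ± 0.29 was not called. Dcn passed the filter on low values only through its E2 OOX and OOX arrays, so these values are a description. The part of these markers in the contractile result was not tested.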

How the data were processed

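Each of 18 samples of cumulus cell RNA was hybridised to an Affymetrix mouse array, 3 per group. Per the labels' protocols, 20 ng was amplified over 2 rounds, which can favour transcript ends. The deposited values are log2 expression, given to 2 decimals. Per the submitters' processing notes, the authors used Affymetrix Expression Console 1.1 and RMA. No detection calls were used here, and the number of arrays limits the precision.

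Of 45101 probe sets, 34945 carried 1 symbol, 932 several and 9160 none, and 34741 were matched to RefSeq by Entrez identifier. Each of 18193 genes took its probe set with the highest mean, and genes above the array median on at least 3 arrays were tested (12246). limma 3.58.1 in R 4.3.3 (lmFit, eBayes) fitted 6 group means on the log2 values, so SEs share the spread of all groups. p-values were adjusted by Benjamini-Hochberg over all tested genes, two-sided, with a threshold of 0.05.

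Named were the 4 genes with the largest interaction per class and sign that kept their call when a term for the array series was added, the 3 of each list, and 16 listed genes. The comparison, classes, lists and members were chosen with earlier results of these data known. Lists are described by counts, without a set test. Of the lists, activin family, steroid synthesis, receptors, glycolysis, amino acid transporters, imprinted genes, Notch and Hedgehog, respiratory chain and other lists not given in the text are summarised among the other observations. Alternatives changed the array series handling, array weights, filter, probe set rule, normalization, replicate number as a block, threshold and single arrays. Replicate numbers follow the order of the numbered titles, and arrays of the same number did not deviate together (median r = -0.004 over 45 pairs), so no pairing was used. The promoters shown hold the 250 bases before the start.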

Additional observations from a re-analysis of the deposited data

Results flagged for a closer look

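The estrogen effect differed between cultures without and with oocytes, by the test of the interaction itself, for 618 genes, and was called in opposite directions for 58. Among these 58, the interactions were 4.64 for Gm2102, 4.60 for Sgpp2, 4.50 for Acta2 and 3.18 for 4933431K23Rik, with estrogen raising the gene without oocytes and lowering it with them. They were -3.22 for Cd83, -2.77 for Stc1, -2.66 for Adamts9 and -2.61 for Hs3st1, with estrogen lowering the gene without oocytes and raising it with them (log2, limma). All 8 kept a called interaction in every alternative in which they were tested. These genes were chosen for large interactions on these arrays and a kept call with the series term. Kept calls were thus favoured in advance. Cd83 was not tested under the stricter filter, as it was above the array median on 6 arrays and 15 were asked for. Its values are a description, as stated above. No cause was tested. Each array was left out in turn, but in groups of 3 arrays it cannot be told which array is the outlying one. Estimated array weights were lowest for OOX replicate 3 (0.148) and E2 OOX replicate 3 (0.369).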

How the results depend on the processing

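Of 83 named genes with a called interaction, 55 kept the call in all alternatives, no named gene with a called interaction changed sign, and 129 pairs of gene and alternative lost a call while 59 gained one. The interaction was called for 618 genes in the main setting and for 647 with the array series as a term, 723 as a random block, 503 within array series (336 of them among the 618), 593 with a replicate block, 1835 with array weights, 300 at an adjusted p under 0.01, 393 against intact complexes alone and 341 against cocultures alone. The replicate block changed the class counts by less than 1.5 times. The estrogen effect without oocytes was called for 620 genes with the series term, 514 within array series, 2679 with array weights and 483 at the stricter threshold (main 1181). The effect with oocytes was called for 3801 with array weights and 861 at the stricter threshold (main 1593). The difference between cocultures and intact complexes was called for 1 gene with the series term, 1 with the random block, 1 within series and 2 with array weights (main 0).

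Reversed genes numbered 203 with array weights, 21 at the stricter threshold, 36 against intact complexes alone, 25 against cocultures alone and 398 by signs alone (main 58). Weaker effects numbered 5 within series, 34 with array weights, 11 with the mean of probe sets, 6 at the stricter threshold and 95 by sizes (main 18). Effects called with oocytes alone numbered 544, 133, 136 and 113 with array weights, the stricter threshold, intact complexes alone and cocultures alone (main 240). Stronger effects numbered 129, 9, 5 and 6 in those settings and 125 by sizes (main 24). Effects called without oocytes alone numbered 147 within series, 837 with array weights and 108 at the stricter threshold (main 246). Leaving out single arrays gave 396 to 878 called interactions, 526 to 1620 effects without oocytes, 34 to 101 reversed, 8 to 22 weaker, 13 to 34 stronger and 122 to 437 called without oocytes alone. E2 OOX replicate 1 gave the low end of most of these (8 weaker genes came without OOX replicate 2) and E2 OOX replicate 3 the high end (22 weaker came without OOX + Oocytes replicate 2). Fewer calls at the stricter threshold and with 1 culture follow from the rule and from fewer arrays. For the others the cause was not tested. No background levels were used, and folds of the 279 called genes with a group mean below 6.33 may be understated.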

Other observations

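Other gene groups are given beside 2.99% of all tested genes with a positive and 2.06% with a negative called interaction. Of 25 tested activin, inhibin and TGF-beta family genes, 2 had a positive and 2 a negative called interaction. In each direction 1 of the 2 kept its call without OOX replicate 3, and 1 without E2 OOX replicate 1. Bmp2, a BMP ligand, fell with oocytes (-0.93, log2) and had an uncalled effect of 0.45 without them. Tgfb2, a TGF-beta ligand, rose by 2.13 without oocytes and 0.71 with them. Of 21 amino acid transporters, 3 had a positive called interaction (Slc38a3, Slc38a4 and Slc38a5) and 1 a negative one (Slc43a2), and Slc38a5 rose by 1.51 without oocytes. Of 11 steroid synthesis genes, 1 had a positive (Hsd11b2) and 2 a negative called interaction (Hsd3b1, which makes progesterone, and Akr1c18, which degrades it). Hsd3b1 and Akr1c18 fell by 0.87 and by 1.23 without oocytes and had uncalled effects of 0.45 and -0.14 with them, and Akr1c18 passed the filter on low values only through OOX arrays.

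Among 14 imprinted growth genes 3 had a negative and 0 a positive called interaction. Estrogen raised 3 of them without and 5 with oocytes, beside 6.03% and 7.05% of all tested genes. Among 17 Notch and Hedgehog genes 3 were positive and 2 negative, and Heyl, a Notch target, fell with oocytes (-1.41) with an uncalled effect of -0.33 without. Positive and negative called interactions numbered 1 and 1 of 20 glycolysis genes, 1 and 0 of 23 ATF4 target genes, 2 and 1 of 13 mural granulosa markers, 1 and 1 of 11 meiotic arrest genes, 0 and 2 of 20 receptors for hormones and growth factors, 1 and 3 of 14 genes of the EGF family and cumulus expansion, 1 and 2 of 19 steroid receptors and coregulators, 0 and 1 of 25 respiratory chain genes and 1 and 3 of 15 granulosa identity markers. Without E2 OOX replicate 1 these became 0 and 0 for steroid receptors and coregulators, 0 and 0 for the respiratory chain and 1 and 1 for granulosa identity markers.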
